A study of Mus musculus with 8 samples.

Results

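The genes described here are the matrix metalloproteases (Mmp), the Adamts proteases and the inhibitors of both, the tissue inhibitors of metalloproteases (Timp) and Reck. They were taken from the deposited table by name, as symbols of Mmp, Timp or Adamts followed by a number, with Reck added. The rule found 42 of the 18770 genes listed, namely 19 Mmp genes, 18 Adamts genes, Timp1 to Timp4 and Reck. GENCODE M21 holds 47 genes of these names, and Mmp1a, Mmp7, Mmp20, Mmp21 and Adamts13 were not analysed here.

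RNA was sequenced from the dermis, hair follicles included, of back skin of wildtype C57BL/6J mice aged 7 to 8 weeks. The sample labels write the strain as C57BL/6. The study asked how alpinetin acts on hair regrowth. The 4 libraries of the AP group came from skin that had been depilated and then received alpinetin, a plant flavonoid, at 3 mg/ml in 20 µl of 65% ethanol. The 4 libraries of the vehicle control (VC) group came from depilated skin that received the same volume of 65% ethanol alone. Skin was taken at day 4 after depilation, and the epidermis between the follicles was removed from both groups.

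Both protease families are zinc-dependent enzymes that cut collagens, proteoglycans and other proteins outside the cell, and most are made as latent forms that are activated by removal of a prodomain. Timp proteins block the active enzymes and are themselves secreted, whereas Reck is an inhibitor anchored in the cell membrane. In skin, they take part in the remodelling of the matrix around growing follicles and healing wounds.

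The VC libraries held 6454563 to 7264151 reads on the listed genes and the AP libraries 8507783 to 11190113. Of these reads, 48.4% ± 5.81 in VC and 8.66% ± 2.63 in AP (SD, n = 4) belonged to genes encoded in mitochondria, so the reads left for all other genes numbered 3080758 to 3762217 in VC and 7561598 to 10594787 in AP. Of those other reads, the 42 genes took 0.275% ± 0.0829 in VC and 0.317% ± 0.0883 in AP (SD, n = 4), a difference with a 2-sided exact permutation p of 0.543. VC.4 and AP.1 had the highest shares of their groups, at 0.397% and 0.412%. Values below are normalized counts, which are reads divided by 1 size factor per library, and fold changes are log2 differences (AP over VC) of normalized counts + 1 from limma. Where 4 values are listed for a group, they follow the order of its libraries, from VC.1 or AP.1 on.

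Of the 42 genes, 39 passed the filter on low values and were tested, whereas Mmp1b, Mmp10 and Adamts16 did not pass. At an adjusted p under 0.05, 5 of the 39 (12.8%) differed between the groups, beside 10.3% of all 15964 genes tested. Timp3, Adamts1, Mmp15 and Mmp28 were higher in AP (4 of 39, or 10.3%, beside 6.33% of all genes). Adamts15 alone was lower (1 of 39, or 2.56%, beside 4.0% of all genes). At an unadjusted p under 0.05, 8 were higher (beside 17% of all genes) and 4 lower (beside 13.3%). With an unadjusted p under 0.01 and a fold over 1.5, cutoffs that the study set on DESeq2 values, limma gave 5 of the 39, beside 13.6% of all genes. At an adjusted p under 0.05, DESeq2 gave 7 of the 39 higher and 2 lower, beside 1677 and 1362 of the 15921 genes to which it gave an adjusted p. Of the 39 tested, the same 5 genes were those whose AP and VC libraries did not overlap, beside 19.2% of all genes (4 with AP above, where all genes gave 10.3%, and 1 with AP below, where all genes gave 8.91%). Over all genes, 1011 were higher and 639 lower, against 890 higher and 892 lower with upper-quartile scaling, 858 and 934 with limma-voom and sample weights, and 8657 and 70 with total counts, which shift the median of all genes from 0.06 to 0.90. The 4 members higher became 2 without AP.2, AP.3 or AP.4. All genes gave 585 higher and 261 lower without VC.1, 398 and 155 without AP.2, 209 and 94 without AP.3, and 254 and 139 without AP.4.

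The median fold change was 0.36 over the 39 genes and 0.06 over all genes tested. By class it was −0.09 for the 17 Mmp genes (0.77 with total counts, 0.05 with the length trend removed, −0.39 without AP.1, −0.18, −0.19 and −0.21 without VC.1, VC.2 and VC.3, −0.02 without AP.2, −0.01 without VC.4, 0.00 without AP.3 and 0.01 without AP.4), 0.54 for the 17 Adamts genes and 0.36 for the 5 inhibitors. The Adamts median was 1.41 with total counts, 0.18 with the length trend removed, 0.33 without AP.1 and 0.24 without VC.2. The inhibitor median was 1.23 with total counts, 0.20 with the length trend removed, 0.71 without VC.1 and 0.24 without VC.2. Of the Mmp genes 7 had an estimate above 0 and 10 below, and of the Adamts genes 12 above and 5 below. With 1 library left out, the estimates of Mmp8, Mmp23, Mmp25, Mmp27, Adamts4, Adamts7, Adamts8, Adamts17 and Adamts18, none of them called, changed sign. With total counts, Adamts15 was the only 1 of the 39 genes with an estimate below 0 (−0.58). None of the 17 Mmp genes was lower in AP by limma or by edgeR, 3 were at an unadjusted p under 0.05, and DESeq2 called 1, Mmp24. Per kilobase (kb) of the longest transcript, the most abundant of the 42 were Timp2 (mean of 1057 normalized counts per kb over the 8 libraries), Mmp2 (874), Mmp14 (750), Mmp3 (362), Timp3 (299) and Timp1 (209). The order differed between the groups, with Mmp14 (976), Timp2 (948) and Mmp2 (713) the highest in VC and Timp2 (1166), Mmp2 (1034) and Mmp14 (523) in AP.

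**Figure D1:**
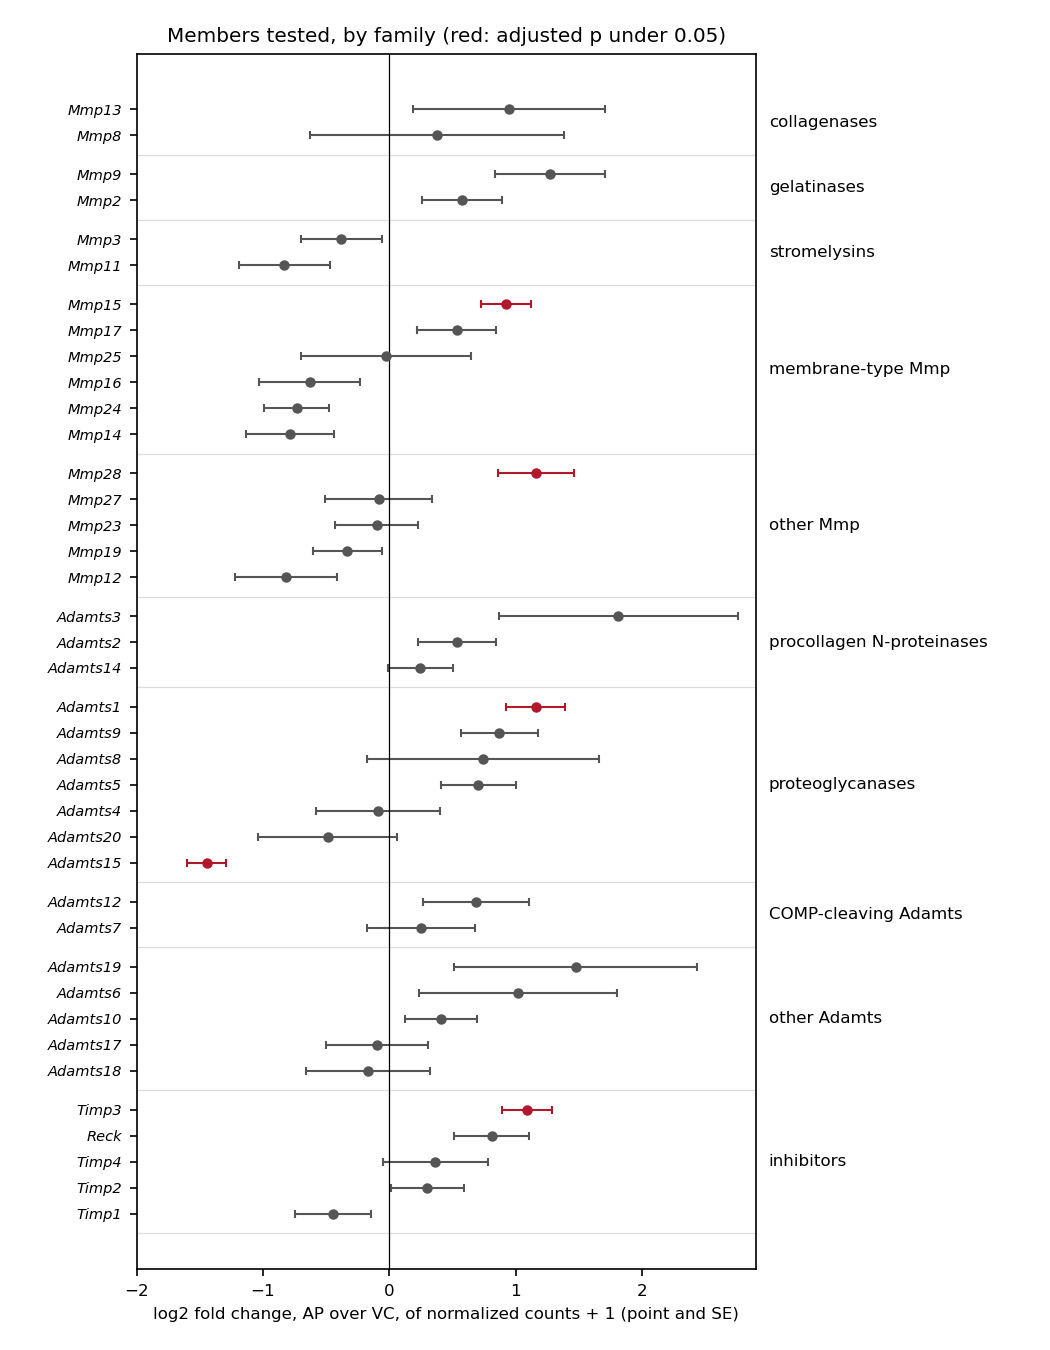
Log2 fold change (AP over VC, normalized counts + 1) of the 39 genes tested, by family, with points for the estimate and bars for its SE. The 5 genes in red have an adjusted p under 0.05; Adamts15 lies at −1.44 and the other 4 between 0.92 and 1.16.

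Among the Adamts proteases that cut proteoglycans, 1 fell and 1 rose. Adamts15 (ENSMUSG00000033453, chr9:30899155-30922452 in GRCm38, minus strand), which cleaves versican and aggrecan, had 642, 563, 739 and 606 normalized counts in VC and 264, 223, 236 and 210.3 in AP. Every AP library lay below every VC library, and the spread within each group was small (637 ± 74.9 in VC and 233 ± 23.0 in AP, SD, n = 4). The fold change was −1.44 (SE 0.15, adjusted p = 0.00193), with the lowest adjusted p of the 39 genes.

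Adamts1 (ENSMUSG00000022893, chr16:85793827-85803113, minus strand), a versican-cleaving protease, moved the other way. Its normalized counts were 227, 309, 401 and 186 in VC and 597, 748, 521 and 564 in AP. The lowest AP library (AP.3) was above the highest VC library (VC.3), and the fold change was 1.16 (SE 0.23, adjusted p = 0.0167). Adamts15 and Adamts1 were called with every 1 of the 8 libraries left out.

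Adamts5, an aggrecan-cleaving enzyme, is the neighbour of Adamts1 on chromosome 16. It had 196, 96.1, 122 and 202.5 normalized counts in VC and 330.0, 292, 208 and 165 in AP. AP.4 lay below VC.1 and VC.4, so the groups overlapped (0.70, SE 0.30, adjusted p = 0.136, and 0.18 with the transcript length trend removed). Adamts8, the neighbour of Adamts15 on chromosome 9, had at most 34.6 normalized counts in any library, and its mean was 13.9 in VC and 12.8 in AP. Its fold change was 0.74 (SE 0.92, adjusted p = 0.619) with VC.2 at 0 reads, −0.27 without VC.2, 1.45 without VC.1, −0.10 in DESeq2 and −0.09 in edgeR. The other enzymes of the group did not pass the test either. Adamts9 had a fold change of 0.87 (adjusted p = 0.0843, and 0.0445 in DESeq2), Adamts4 of −0.09 and Adamts20 of −0.49. The Adamts9 estimate was 0.44 with the length trend removed. That of Adamts20 was −1.09 without VC.1, −0.23 without VC.2, −0.16 without VC.3 and −0.81 in DESeq2.

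The 3 procollagen N-proteinases, which remove the amino-terminal propeptide of fibrillar collagens, were not called. Adamts2, the most abundant Adamts gene per kb, had 866, 771, 694 and 1537.5 normalized counts in VC and 2195, 1566, 1057 and 870.5 in AP. VC.4 lay close to AP.2 and above AP.3 and AP.4, so the groups overlapped (0.54, SE 0.31, adjusted p = 0.263). The estimate was 0.13 with the transcript length trend removed and 0.30 without AP.1. Adamts14 had a fold change of 0.24 and Adamts3, with 4 reads in 1 VC library and 0 in the other 3, of 1.81 (SE 0.94, adjusted p = 0.218). For Adamts14 the estimate was 0.12 without VC.1, 0.14 without AP.3, 0.16 without VC.4 and 0.45 without VC.3. With the length trend removed it was 0.003. Adamts7 and Adamts12, which cut cartilage oligomeric matrix protein, had fold changes of 0.25 and 0.69 (adjusted p = 0.725 and 0.291). Adamts7 had −0.08 without VC.1, 0.62 without VC.4, 0.06 without AP.2, 0.12 without VC.2 and 0.39 without AP.4. Adamts12 had 0.38 without AP.2 and 1.14 without AP.4. The remaining Adamts genes tested (Adamts6, Adamts10, Adamts17, Adamts18 and Adamts19) ranged from −0.17 to 1.47, and for Adamts16 between 0 and 3 reads were counted in each library. Adamts6 (1.02) had 0.31 without VC.1, and Adamts19 (1.47) had 0.87 without VC.1 or VC.4. In DESeq2 these 2 genes had 0.65 and 0.68. Adamts10 (0.41) had 0.21 without VC.2 and 0.25 with the length trend removed.

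Among the membrane-type Mmp genes, whose products are held at the cell surface, Mmp15 rose. Mmp15 (ENSMUSG00000031790, chr8:95352268-95375080, plus strand) had 92.8, 124, 108 and 111 normalized counts in VC and 163, 226, 213 and 229.6 in AP. AP.1 was the lowest of its group and still above all VC libraries, and the fold change was 0.92 (SE 0.20, adjusted p = 0.0204). The call was lost without AP.2, AP.3 or AP.4, at adjusted p = 0.0627, 0.0743 and 0.0670 and fold changes of 0.88, 0.91 and 0.87, and kept without any of the other 5 libraries.

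Mmp14, a collagenase that also activates the Mmp2 proenzyme, was the most abundant membrane-type gene. It had 4098, 1526.5, 2137 and 4881 normalized counts in VC and 2009, 2066, 1611 and 1094 in AP. VC.1 and VC.4 were the high libraries, VC.2 lay below AP.1, AP.2 and AP.3, and the difference was not called (−0.79, SE 0.35, adjusted p = 0.152). With scaling to total counts the estimate was 0.08, where the median of all genes was 0.90. Of the others, Mmp24 had −0.73 (SE 0.26, adjusted p = 0.0853, and 0.0388 in DESeq2), Mmp16 −0.63, Mmp17 0.53 and Mmp25 −0.03. With 1 library left out, Mmp16 ranged from −0.81 to −0.40, Mmp17 from 0.35 to 0.66 and Mmp25 from −0.50 to 0.40. The lowest estimate of Mmp17 in any alternative was 0.17.

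Mmp28, also called epilysin for its expression in epidermis, was the other Mmp gene called. Mmp28 (ENSMUSG00000020682, chr11:83440768-83463071, minus strand) had 85.5, 115, 99.7 and 46.9 normalized counts in VC and 127, 214, 206 and 212 in AP. AP.1 lay close to VC.2 and apart from the other 3 AP libraries, although the groups did not overlap (1.16, SE 0.30, adjusted p = 0.0352). The call was lost without VC.1, VC.4, AP.2, AP.3 or AP.4 (adjusted p = 0.0640, 0.0531, 0.0956, 0.109 and 0.0971) and with the transcript length trend removed (0.0524), while the fold change was between 0.89 and 1.18 in these fits.

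Neither gelatinase, the enzymes that cut denatured collagen and basement membrane collagen, was called. Mmp2 had 1896, 1590.1, 1540.2 and 3756 normalized counts in VC and 4477, 3641, 2604 and 2012 in AP. The groups overlapped because VC.4 exceeded 3 of the 4 AP libraries (0.57, SE 0.31, adjusted p = 0.240, and 0.87 without VC.4). Mmp9, made by leukocytes and by keratinocytes in wounds, had 47.3, 16.3, 20.48 and 50.6 normalized counts in VC and 50.04, 59.8, 110.1 and 90.1 in AP. Only AP.1 and VC.4 crossed, and the fold change was 1.27 (SE 0.43, adjusted p = 0.0778, and 0.0338 in DESeq2).

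Mmp3 (stromelysin 1), which cuts proteoglycans and activates other Mmp proenzymes, had 553, 662, 406 and 1479 normalized counts in VC and 587, 583, 515 and 436 in AP. VC.4 stood above all other libraries, whereas VC.3 was the lowest of the 8 (−0.38, SE 0.32, adjusted p = 0.454, and 0.49 on the log2 scale with total counts). The estimate was −0.01 without VC.4 and −0.63 without VC.3. Mmp11, a stromelysin of stromal cells, had a fold change of −0.83 (SE 0.36, adjusted p = 0.146, and −0.53 on the log2 scale without VC.4). The collagenases Mmp13 and Mmp8 had 0.95 and 0.38 (SE 0.76 and 1.01), neither called. Mmp13 had 0.39 without VC.2, 1.49 without VC.4 and 1.57 without AP.1. Mmp8, with means of 4.66 in VC and 3.72 in AP, had −0.18 without VC.1 or VC.4, 1.05 without VC.2 and −0.35 in DESeq2. Mmp12, the macrophage elastase, had −0.82 (adjusted p = 0.195), and Mmp19, Mmp23 and Mmp27 lay between −0.33 and −0.09. Mmp19, at −0.33, ranged from −0.52 to −0.09 with 1 library left out.

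Mmp1b and Mmp10 had no read in any VC library. Mmp1b had 2, 3, 18 and 15 reads in AP, and Mmp10 had 1, 11, 12 and 6. Both were called by limma when the filter on low values was dropped. With the floor set at 3 reads over the VC group, or 1.20 normalized counts, the mean of the AP libraries (5.69 and 4.23) was at least 4.73-fold higher for Mmp1b and at least 3.52-fold higher for Mmp10. Such floors cover counting error only, and the AP libraries held more reads outside mitochondrial genes. Mmp1b shares 19.7% of its 50-base words with other genes, 11.8% with Mmp1a, and Mmp10 shares 8.37% with Mmp3, so their reads are uncertain.

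Of the inhibitors, Timp3 rose. Timp3 (ENSMUSG00000020044, chr10:86300372-86349506, plus strand), which binds to the matrix and inhibits Adamts as well as Mmp enzymes, had 866, 814, 1101 and 793 normalized counts in VC and 2125, 2536, 1629 and 1442 in AP. All AP libraries were above all VC libraries, with AP.1 and AP.2 the highest. The fold change was 1.09 (SE 0.20, adjusted p = 0.0115) and was called with each library left out.

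Timp3 lies within Syn3 on the opposite strand, and 36.3% of its 50-base words also occur in transcripts of other genes, nearly all of them in Syn3. Syn3, a synapsin gene, had 637, 618, 841 and 471 normalized counts in VC and 1273, 1032, 774 and 765 in AP (0.58, SE 0.22, adjusted p = 0.100). Whether the counting used strand is not given in the sources used here, so reads of the shared stretch cannot be told apart. Mmp19 shares 22.1% of its words with Tmem198b on the opposite strand (fold change −0.36), and Mmp24 shares 13.8% with BC029722 (143.8 to 251 normalized counts, −0.49). Mmp28 likewise shares 12.3% of its words with 1700020L24Rik on the opposite strand, which had 60.0 to 92.9 normalized counts and a fold change of 0.09 (adjusted p = 0.835). Timp1 and Timp4 lie within Syn1 and Syn2 in the same arrangement, but Syn1 and Syn2 had at most 25.9 and 27.6 normalized counts in any library.

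Timp2, which takes part in the activation of the Mmp2 proenzyme by Mmp14 and is also an inhibitor, had 3085, 2682, 2759.6 and 5533 normalized counts in VC and 6528, 4380.3, 3347 and 3039 in AP. VC.4 exceeded every AP library except AP.1 (0.30, SE 0.29, adjusted p = 0.511), and the estimate was 0.08 without AP.1, 0.19 without VC.2 and 0.54 without VC.4. Timp1, an inhibitor induced in wounds, had 229, 118, 189.8 and 332 normalized counts in VC and 175, 177, 108 and 147 in AP. The groups overlapped, since VC.2 was among the lowest libraries (−0.45, SE 0.30, adjusted p = 0.338, and 0.42 with total counts), and the estimate was −0.21 without VC.4, −0.29 without AP.3, −0.71 without VC.2 and −0.14 with the length trend removed. Timp4 had 253, 81.3, 99.7 and 61.9 normalized counts in VC and 162, 216, 97.7 and 103 in AP, and VC.1 was the highest of the 8 (0.36, SE 0.41, adjusted p = 0.585). Its estimate was 0.78 without VC.1, 0.11 without VC.4, 0.15 without AP.2, 0.24 without VC.2, 0.09 with the length trend removed and 0.22 in edgeR and DESeq2.

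Reck had 100.1, 139, 107 and 157.5 normalized counts in VC and 368, 197, 231 and 133 in AP. AP.1 was the high library and AP.4 lay within the VC range (0.81, SE 0.29, adjusted p = 0.0936, and 0.0417 in DESeq2). The study picked Reck from these libraries, so its direction here is not independent evidence.

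**Figure D2:**
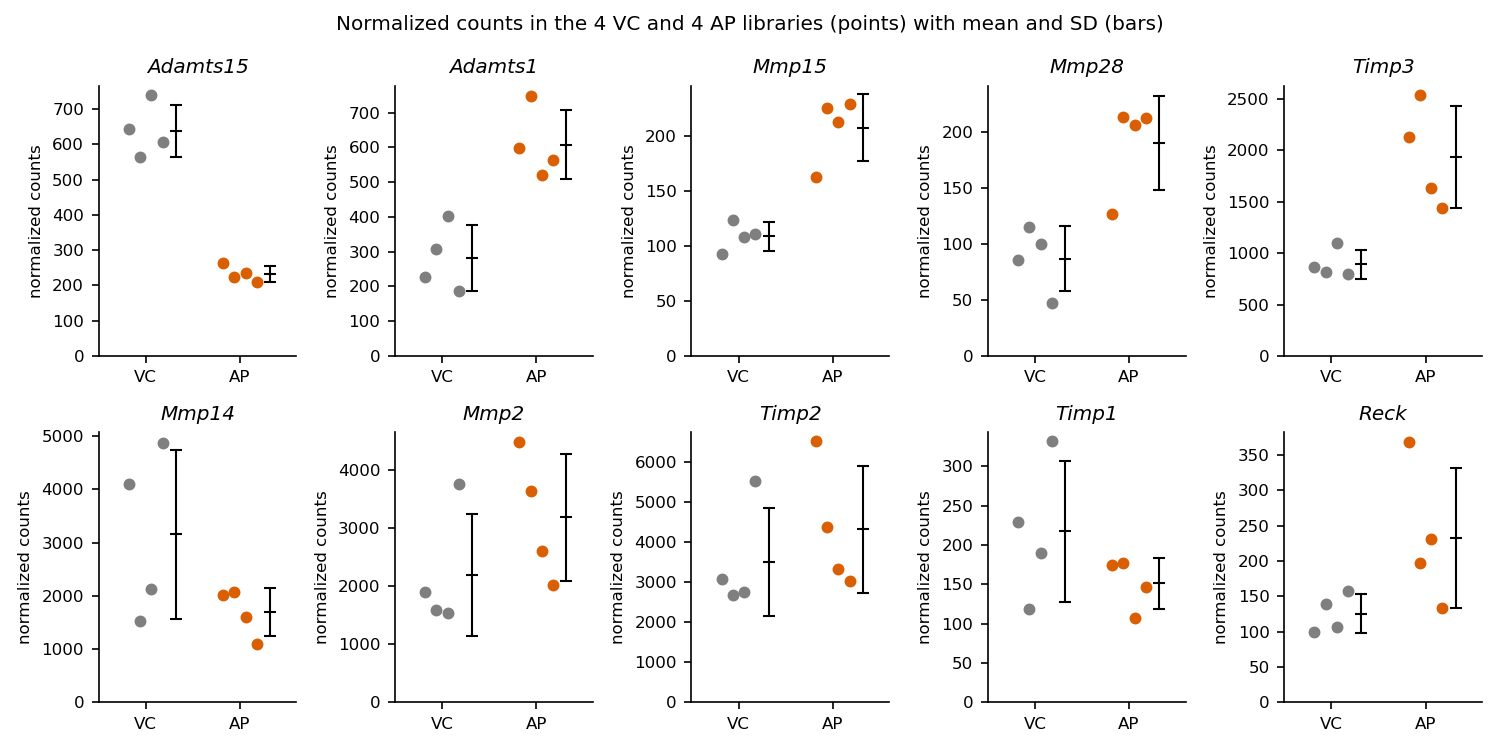
Normalized counts of 10 genes in each of the 4 VC (grey) and 4 AP (orange) libraries, with the mean and SD of each group as bars. In the upper row the groups are apart, with Adamts15 at 210.3 to 264 in AP against 563 to 739 in VC; in the lower row they overlap.

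The balance of proteases to inhibitors was taken as the ratio of levels per kb within a library, which does not depend on its size factor. Summed over each class, the levels overlapped between the groups, with 2808 ± 1237 normalized counts per kb in VC and 2444 ± 645 in AP for Mmp, 1406 ± 442 and 1773 ± 529 for Timp1 to Timp4, and 440 ± 68.5 and 539 ± 126 for Adamts (SD, n = 4). The ratio of Mmp to Timp1 to Timp4 was 2.07, 1.92, 1.59 and 2.24 in VC and 1.31, 1.40, 1.54 and 1.31 in AP. All AP libraries were below all VC libraries, by a narrow margin between AP.3 and VC.3. The difference of the means was −0.48 on the log2 scale. It was −0.21 without Mmp14, −0.32 without Timp3 and −0.26 for means of log2 levels, and in each of these the groups overlapped.

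The ratio of all Adamts genes to Timp3 was 2.19, 2.14, 1.99 and 3.11 in VC and 1.44, 1.19, 1.38 and 1.28 in AP, a log2 difference of −0.82. The groups did not overlap, nor without Adamts15 (−0.52) or without Adamts2 (−0.94). These checks change only the numerator, and the denominator is Timp3 alone, which was called by itself. The summed Adamts level overlapped, with means of 440 in VC and 539 in AP. The ratio is therefore not independent of the Timp3 call. It also carries the reads of the stretch that Timp3 shares with Syn3. Mmp14 to Timp2 was 1.52, 0.652, 0.887 and 1.01 in VC and 0.353, 0.540, 0.551 and 0.412 in AP (−1.09 on the log2 scale). All AP libraries lay below all VC libraries, although neither gene was called by itself.

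Mmp14 to Reck was 57.5, 15.4, 28.2 and 43.5 in VC and 7.66, 14.7, 9.79 and 11.6 in AP, a log2 difference of −1.60 without overlap. Mmp9 to Timp1 went the other way, with 0.0574, 0.0382, 0.0300 and 0.0424 in VC and 0.0796, 0.0941, 0.284 and 0.170 in AP (1.75 on the log2 scale). AP was above VC in every library for this pair. Mmp2 to Timp2 (0.27), Adamts1 to Timp3 (0.07) and Adamts5 to Timp3 (−0.38) overlapped between the groups. Without VC.4 or AP.4, Adamts1 to Timp3 turned to −0.05 or −0.03, and Adamts5 to Timp3 was −0.18 without VC.4, −0.23 without VC.1 and −0.58 without VC.3. These 8 ratios share genes, were not tested, and describe messenger RNA, not enzyme activity.

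**Figure D3:**
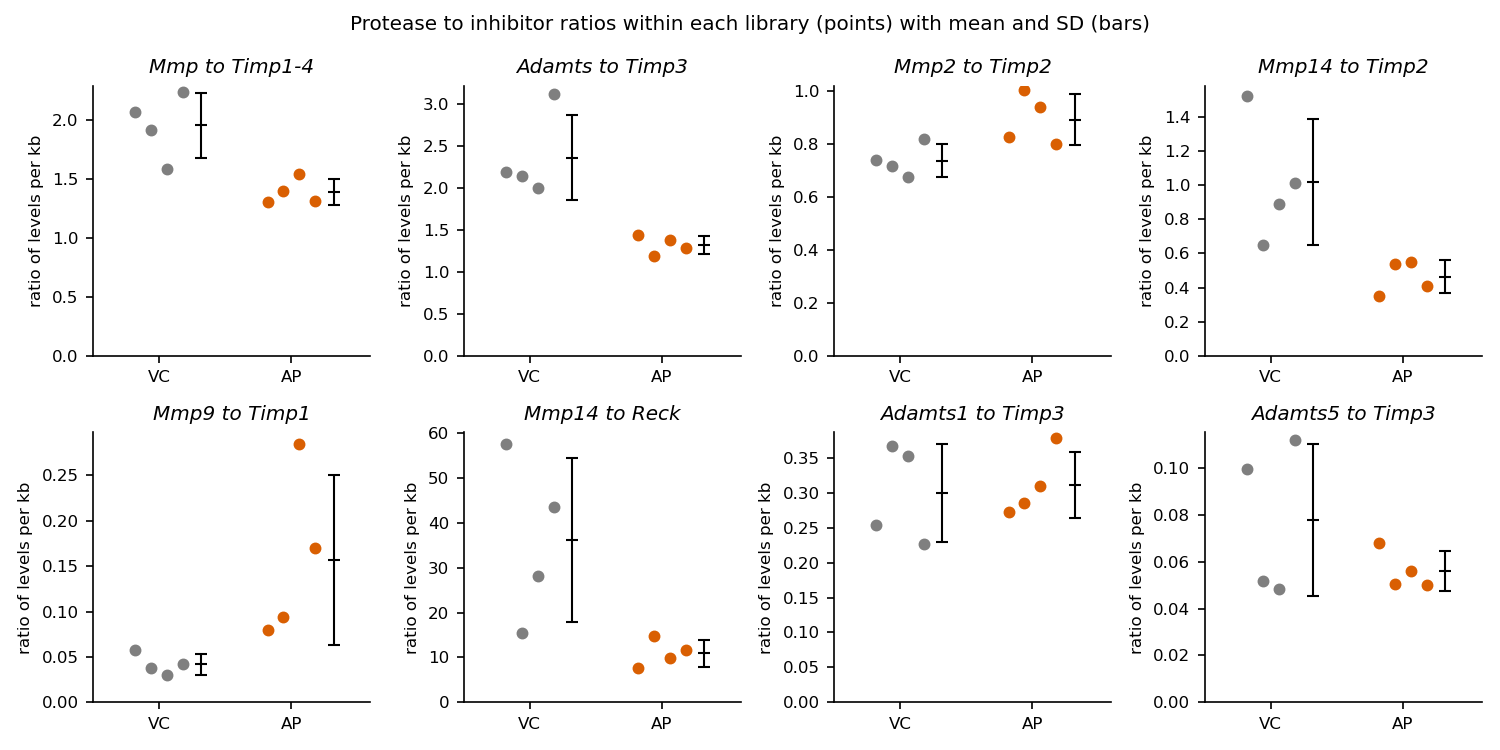
Ratio of levels per kb of protease to inhibitor in each of the 4 VC (grey) and 4 AP (orange) libraries, with the mean and SD of each group as bars. The ratio of Mmp to Timp1-4 lies between 1.31 and 1.54 in AP and between 1.59 and 2.24 in VC, and only Mmp9 to Timp1 is higher in all AP libraries.

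Genes that activate these proteases or belong to the plasmin system were compared in the same way. Furin, a convertase that activates membrane-type Mmp and Adamts proenzymes, rose from 369 ± 68.1 to 719 ± 84.5 normalized counts (SD, n = 4; fold change 0.97, SE 0.18, adjusted p = 0.0113). The related convertase Pcsk6 rose by 1.04 (SE 0.21, adjusted p = 0.0167). Serpinb2, an inhibitor of the plasminogen activators, rose by 2.80 (SE 0.53, adjusted p = 0.0141). The activators themselves, Plau and Plat, were not called (0.04 and 0.28).

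Of 16 other metzincins and Adamts-like genes tested, 3 were higher by limma, beside 6.33% of all genes (6 at an unadjusted p under 0.05, 2 by edgeR, 6 by DESeq2). None was lower by limma, beside 4.0% of all genes (0 at an unadjusted p under 0.05, 0 by edgeR and by DESeq2). The 3 higher were the sheddases Adam17 (0.69, SE 0.14, adjusted p = 0.0174) and Adam9 (0.66, adjusted p = 0.0498) and the procollagen C-proteinase Tll1 (2.65, adjusted p = 0.0282). Of 10 cofactors and clearance genes, 2 were higher by limma, beside 6.33% of all genes (4 at an unadjusted p under 0.05, 2 by edgeR, 3 by DESeq2). None was lower, beside 4.0% of all genes (2 at an unadjusted p under 0.05, 0 by edgeR, 1 by DESeq2). The 2 higher were Lrp1, a receptor that takes up proteases and their complexes with inhibitors (1.19, SE 0.26, adjusted p = 0.0225), and Thbs1 (1.07, adjusted p = 0.0339). Among the substrates, the versican gene Vcan (−0.59, adjusted p = 0.276) and the fibrillar collagen genes Col1a1, Col1a2 and Col3a1 (0.63, 0.57 and 0.41) were not called.

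In such tissue samples, fewer cells of a type and less RNA per cell cannot be told apart. Beside the counts of markers called by limma below, 6.33% of all genes tested were higher in AP and 4.0% lower. Of the markers of suprabasal keratinocytes, 6 of 8 were higher in AP. Their summed level was 5281, 11640.4, 7813 and 5385 normalized counts in VC and 40418, 38352, 113008.5 and 160348 in AP, led by Krt10, and it was above VC in every AP library. The basal keratinocyte markers, 3 of 6 higher, summed to 23320.4, 77547, 46435 and 21609.6 in VC and 48525, 52031, 93106 and 136994 in AP, with Krt14 the most abundant and the groups overlapping. Keratins were thus counted in all 8 libraries after the epidermis had been removed, and AP.3 and AP.4 were the highest.

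The fibroblast markers, 0 of 7 called by limma or edgeR (1 higher and 1 lower at an unadjusted p under 0.05, 1 lower in DESeq2), summed to 120642, 81326, 82894 and 222688 in VC and 254001, 188854, 136041 and 97846 in AP, with Col1a1 the most abundant. VC.4 and AP.1 were the highest of their groups. So they were for Mmp2, Timp2, Adamts2, Adamts5 and Reck, with estimates above 0, and for Mmp3, Mmp11, Mmp19 and Mmp23, with estimates below 0. Timp2 ranked the 4 libraries in the same order as the fibroblast sum within each group. The macrophage markers, 0 of 8 called by limma or edgeR (5 lower at an unadjusted p under 0.05, 2 lower in DESeq2), summed to 17378, 8898, 7772 and 23201 in VC and 10881, 7387, 5332 and 5525 in AP, led by Lyz2. VC.1 and VC.4 were the highest of all libraries, as they were for Mmp14, Mmp12, Mmp24 and Timp1.

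The endothelial markers, 2 of 6 higher, summed to 786, 671, 1342 and 1472 in VC and 2243, 5619.9, 2019 and 2114 in AP. They were above VC in every AP library and led by Pecam1. AP.2 was the highest of its group here and for Timp3, Adamts1 and Adamts9. It was also the highest of its group for other members, such as Mmp14, Timp1 and Adamts4, whose estimates were below 0. The mast cell markers, 2 of 5 lower, summed to 1144, 698, 685 and 1326 in VC and 598, 616, 414 and 343 in AP, led by Mcpt4, below VC in every AP library. Of the smooth muscle markers 2 of 5 were higher, while the sums overlapped (4778 ± 1041 in VC and 5163 ± 2357 in AP, SD, n = 4). Des, the most abundant of them, had a fold change of −1.33 and was not called, whereas the other 4 lay between 0.76 and 2.76. The skeletal muscle markers (0 of 5 called, 4 lower at an unadjusted p under 0.05) summed to 37898, 55826, 27509.8 and 30375 in VC and 49602, 7247, 4318 and 9559 in AP, led by Acta1, and AP.1 alone of its group lay within the VC range. The adipocyte markers (0 of 5 called, 1 higher at an unadjusted p under 0.05) summed to 10381 ± 6223 and 10592 ± 4381, led by Fabp4. Limma, edgeR and DESeq2 gave no call in these 2 lists nor among the 3 neutrophil markers tested (0 at an unadjusted p under 0.05), whose 6 listed genes summed to 44.3 to 114 in VC and 47.9 to 73.3 in AP, led by Csf3r. No listed marker had 3 reads or fewer in all 8 libraries. The part of these cell types in the differences between AP and VC was not tested.

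On chromosome 9, 10 Mmp genes lie side by side within 427072 bases (chr9:7272514-7699585, GRCm38) with no other protein-coding gene between them, and 7 of them are among the 42. Promoter windows from RefSeq (GRCm38.p6, 250 bases before to 50 after the start) were found for 28 of the 42 genes. They were searched on both strands for TGANTCA, the motif bound by AP-1, a factor long known to act on collagenase and stromelysin promoters. It occurred in a window of 8.97% of the 27025 genes with any, of 5 of the 7 cluster genes and of none of the other 21 members. Mmp12 has another window, without the motif. The 100 bases before the start of these 5 genes are shown because the motif was found in no member outside the cluster, with the motif in capitals:

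Mmp13: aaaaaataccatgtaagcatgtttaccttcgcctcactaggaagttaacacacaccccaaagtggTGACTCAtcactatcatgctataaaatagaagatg

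Mmp12: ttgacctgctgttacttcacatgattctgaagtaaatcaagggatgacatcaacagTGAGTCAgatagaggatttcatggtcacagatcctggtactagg

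Mmp1b: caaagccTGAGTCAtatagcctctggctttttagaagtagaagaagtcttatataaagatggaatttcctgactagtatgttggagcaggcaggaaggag

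Mmp3: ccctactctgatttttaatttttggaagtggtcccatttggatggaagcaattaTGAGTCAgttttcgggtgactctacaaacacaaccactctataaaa

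Mmp10: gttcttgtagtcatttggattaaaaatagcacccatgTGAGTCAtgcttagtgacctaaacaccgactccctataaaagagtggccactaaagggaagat

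They lie at chr9:7272414-7272513 (Mmp13), chr9:7347274-7347373 (Mmp12), chr9:7388027-7388126 (Mmp1b, minus strand), chr9:7445722-7445821 (Mmp3) and chr9:7502242-7502341 (Mmp10), on the plus strand except for Mmp1b. The motif begins 35, 44, 93, 46 and 63 bases before the start, in that order. A match describes the letters of the window and nothing more. The 5 genes did not share a direction in AP, since Mmp1b and Mmp10 had reads in AP only, while the fold changes of Mmp13, Mmp3 and Mmp12 were 0.95, −0.38 and −0.82, none of them called. Mmp8 and Mmp27, the other cluster genes listed, had no TGANTCA in their windows and fold changes of 0.38 and −0.09.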

How the data were processed

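Poly(A) RNA was captured by the authors on oligo-dT beads, and the reads were aligned to mm10 with STAR and compared with DESeq2. Their methods name featureCounts for counting, whereas the submitters' processing notes list HTSeq. The deposited signal is, per gene and library, a read count over the DESeq2 size factor of that library. The table also holds the authors' own DESeq2 comparison (mean level, fold change, its standard error, Wald statistic, p-value and adjusted p-value), which was not used. Of 150160 values, all 150160 were whole reads after division by 1 step per library (tolerance 0.05 reads). For genes without a read in VC, the floor was the level at which 3 reads are counted over the 4 VC libraries together, 1.20 normalized counts. Chi-square per degree of freedom between libraries of a group was 14.7 to 74.2, so counting error is small beside their spread.

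The column names give the group, but the sample labels are numbered otherwise, so columns could not be tied to single labels. The study gives 4 mice per group for these data, and the labels do not tie a library to a mouse.

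A gene was tested when 4 or more libraries reached 3 normalized counts. The test was limma 3.58.1 (R 4.3.3; empirical Bayes with an intensity trend) on log2(value + 1), where the estimate of a low gene depends on the value added and on libraries at 0. Adjustment was by Benjamini-Hochberg over the 15964 genes tested. All adjusted p-values come from limma unless another tool is named. On the recovered reads, edgeR 4.0.16 (quasi-likelihood) called 1003 genes higher and 712 lower, and DESeq2 1.42.0 called 1677 higher and 1362 lower. Other alternatives were pseudocounts of 0.5 and 5, no filter, a filter of 10, upper-quartile, total-count and TMM scaling, mitochondrial genes left out, limma-voom with sample weights, a transcript length trend (loess, span 0.3) removed, and each library left out. Reads drawn down to 3080758 per library and the balances without Mmp14, Timp3 or Adamts15 were added after the data were seen. Single values were compared by an exact permutation test over the 70 assignments (smallest p 0.0286). Scripts were tested on simulated data.

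Values in every library are given for genes with an adjusted p under 0.05 or an unadjusted p under 0.01 with a fold over 1.5 (5 of 39 genes, beside 13.6% of all), for Timp1 to Timp4 and Reck, for the proteases of the named pairs and for the 3 most abundant per kb of Mmp and of Adamts. Syn1, Syn2, Syn3, Tmem198b, BC029722 and 1700020L24Rik were named for their position, and Adamts8, Des, Plau, Plat, Vcan, Col1a1, Col1a2 and Col3a1 after their values were seen. The genes, lists and markers were chosen with earlier results of these data known. Shared 50-base words were counted over GENCODE M21 transcripts. Plg, Mep1a, Mep1b, A2m, Ly6g, Ltf and Mpo of the lists were not analysed here. A planned search of the proteins for the zinc-binding motif was not run, since no protein sequences were at hand.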

Additional observations from a re-analysis of the deposited data

Results flagged for a closer look

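Sets of 4 values of a group were examined for 15 named genes, the 8 balances and the reads, mitochondrial share and number of genes with a read of each library. In 3 of these 52 sets, the distance of 1 library to its nearest neighbour, as a share of the whole range, was above Dixon's 95% critical value, and chance gives about 1 in 20. Mmp2 in VC.4 was at 3756 normalized counts, where the median of the 4 VC libraries was 1743. Timp2 in VC.4 was at 5533 normalized counts against a VC median of 2922. Mmp28 in AP.1 was at 126.9 normalized counts against an AP median of 209. VC.4 also had the highest fibroblast marker sum of the VC group (222688 normalized counts), and AP.1 lay low for Mmp15 as well (163 normalized counts), although that value was not far enough from the rest to be picked out.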

How the results depend on the processing

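Adamts15, Timp3 and Adamts1 kept their direction and an adjusted p under 0.05 in all 21 alternatives, with fold changes of −1.77 to −0.58, 0.89 to 1.96 and 0.95 to 2.03 and highest adjusted p-values of 0.0380, 0.0363 and 0.0494. Mmp15 was called in 18 of 21 and Mmp28 in 15 of 21, with highest adjusted p-values of 0.0743 and 0.109 and fold changes of 0.69 to 1.79 and 0.89 to 2.02. Of the named genes not called, none was called with a library left out. The number of members higher, 4, was 17 with total counts, 7 with DESeq2 and 2 to 4 with a library left out. It was 6 with no filter on low values, where Mmp1b and Mmp10 were also called. The number lower, 1, was 2 with DESeq2 and 1 with any library left out. Over all genes, 1011 higher became 8657 with total counts, 1677 with DESeq2, 580 with the length trend removed and 209 to 1082 with a library left out. The 639 lower became 70, 1362, 516 and 94 to 817 under the same alternatives. Leaving out VC.1 gave 585 higher and 261 lower, AP.2 398 and 155, AP.3 209 and 94, and AP.4 254 and 139, fits with fewer samples. Total counts shift the median of all genes from 0.06 to 0.90, since mitochondrial genes hold more of the VC reads, and there Mmp14 (0.082), Timp1 (0.42) and Mmp3 (0.49) reversed, as did every other member with a negative estimate except Adamts15 (−0.58). The log2 difference of Mmp to Timp1-4 was −0.26 for means of log2 levels, −0.84 without Mmp2 and −0.21 without Mmp14, against −0.48, and that of Adamts to Timp3 was −0.52 without Adamts15, against −0.82. The balances without Mmp14, Timp3 or Adamts15 and the fit with reads drawn down were chosen after seeing the data, and in that fit the same 5 members were called. For the other changes the cause was not tested. No paired analysis was possible because the groups share no replicate number in the labels. Depth limits Mmp1b, Mmp10 and Adamts16, for which 3 reads or fewer were counted in every VC library.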
